A study of Xenopus laevis with 6 samples.

Results

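The translation genes described here are the initiation, elongation and release factors, the cytoplasmic poly(A)-binding proteins and the aminoacyl-tRNA synthetases with their scaffold proteins, measured in cultured tissue of the frog Xenopus laevis. Members were chosen by gene symbol from the array's annotation, with symbols that begin with eif1 to eif6, eef1, eef2, etf1, gspt, pabpc or aimp and the symbols of tRNA synthetases, and the probe set with the highest mean signal stood for each symbol. The rule found 92 genes among 7531 distinct symbols on the array. They carry 75 names, since Xenopus laevis has many genes as a pair of copies from an ancient genome duplication. These are called here the long copy (.L, 46 members) and the short copy (.S, 45 members), and eif4g3 carries no copy letter. Long and short refer to the chromosomes that carry the copies, not to the length of the genes. Total RNA came from explants of the animal pole, the upper part of the blastula, cut at stage 8 and cultured until embryos of the same parents were at stage 20. The NICD group (2 samples) holds explants labelled as injected with NICD, the intracellular domain of the Notch receptor that switches on target genes, and the other group (4 samples) holds explants labelled untreated. Both groups share the explant culture, and with no injected control the effects of NICD and of injection cannot be told apart. The design text calls the untreated explants pooled, and no label tells whether a group's samples are separate experiments. Each p-value therefore measures the spread among these arrays, which may be technical.

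Translation starts when eIF2 brings the initiator tRNA to the small ribosomal subunit, eIF3 holds the complex together, and eIF4E, eIF4G and eIF4A recruit capped mRNA, whose poly(A) tail is bound by poly(A)-binding protein. Elongation factor eEF1A then delivers aminoacyl-tRNAs, which the tRNA synthetases charge, eEF2 moves the ribosome along, and the release factors end the chain. Frog oocytes and early embryos are known for stored maternal mRNA and for oocyte forms of several of these factors, which give way to somatic forms during development.

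Each sample was hybridised to 1 Affymetrix array, and values are MAS5 signals on a linear scale. The median signal per array ran from 156 in NICD 2 to 179 in untreated 3, and 14.2% to 16.4% of an array's probe sets lay under 32 signal units. The arrays were processed on 2 days, with NICD 1, untreated 1 and untreated 2 on day 1 and the other arrays on day 2. Both NICD arrays ran in fluidics module 4 and the untreated arrays in modules 1 and 2, so the module cannot be told apart from the treatment. The gapdh control's 3' probe set over its 5' probe set was 4.21 and 2.98 in the NICD arrays and 2.70 to 3.54 in the untreated arrays. The notch1.S probe set had 886 and 443 signal units with NICD, against 269, 232, 216 and 312 untreated (limma log2 change 1.20, Benjamini-Hochberg adjusted p = 0.0105), but whether its probes lie in the injected part is not known, so it does not check the labels.

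Cell type markers moved with the treatment, and their part in the results below was not tested. All 8 multiciliated cell probe sets were lower with NICD (limma, adjusted p under 0.05), with summed signals of 1131 to 1609.5 in the NICD arrays and 9529.9 to 12341 in the untreated arrays. All 7 ionocyte probe sets were lower, with sums of 276 to 457 with NICD and 7744 to 11957 untreated. All 4 outer epidermis probe sets were lower, with sums of 3406 to 11159 with NICD and 35047 to 50475 untreated, as were 3 of 4 tested for goblet and small secretory cells, with sums of 1809 to 3503 with NICD and 25353 to 38150.1 untreated. Of the neural progenitor probe sets 8 of 9 were higher, with sums of 18751 to 20069 with NICD and 1532 to 2075 untreated, and so were 8 of 11 for proliferation, with sums of 18541 to 21327 with NICD and 7598 to 8981 untreated. Of 5 neuron probe sets tested 2 were higher and 1 lower, with sums of 5713 to 6702 with NICD and 6144 to 7457 untreated. Among 4 tested for mesoderm and muscle 1 was higher and 2 were lower, with sums of 1216 to 1261 with NICD and 1429 to 1907 untreated. No marker found was listed at 0, which by itself does not show that its cell type was present. Names found with a probe set of their own were 6 of 9 for multiciliated cells, 3 of 4 for outer epidermis and 4 of 5 for mesoderm and muscle. All names of the other marker lists were found. In bulk tissue, fewer cells of a type and less RNA per cell cannot be told apart.

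Most translation genes did not pass the test. Of the 88 members tested, 3 were higher and 8 lower in NICD explants at a Benjamini-Hochberg adjusted p under 0.05 from limma, fitted across all 10368 probe sets tested on log2(signal + 32), and 77 did not pass. That is 12.5% of the members tested, beside a background of 31.6% over all probe sets tested (15.3% higher and 16.2% lower). The median log2 change of the tested members was -0.04, against 0.05 over all probe sets tested, and their median change in size was 0.26, against 0.49. Of the members, 6 passed with a change of at least 2-fold, at a background of 22.0%. The changes ran from -1.30 to 1.10, and 78.4% of tested members lay within 0.5 on the log2 scale, against 51.1% of all probe sets tested. A 95% interval of the change lay inside 2-fold in both directions for 66 tested members (75.0%), against 42.6% of all probe sets tested. Over all 92 members with no filter on low values the median was -0.05, with 3 higher and 8 lower at a background of 20.8%.

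Both NICD arrays lay above every untreated array for 15 tested members and below every untreated array for 19, against backgrounds of 26.7% and 24.2% of all probe sets tested. The groups overlapped for the other 54. Besides the 11 that passed, 8 members had an unadjusted p under 0.05, so 19 did in all (21.6%), against 42.3% of all probe sets tested. The filter, a signal above the array's 40th percentile (102 to 116 signal units) in at least 2 arrays, kept 81 members that were above it in all 6 arrays, of which 2 were higher and 7 lower. It left out eif2ak1.L, eif3a.S, pabpc4.L and mars2.L. One tested member, eif2ak2.L, passed it through the NICD arrays alone, and eef1aknmt.S, eef1a2.S and farsa.L through untreated arrays alone.

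**Figure D1:**
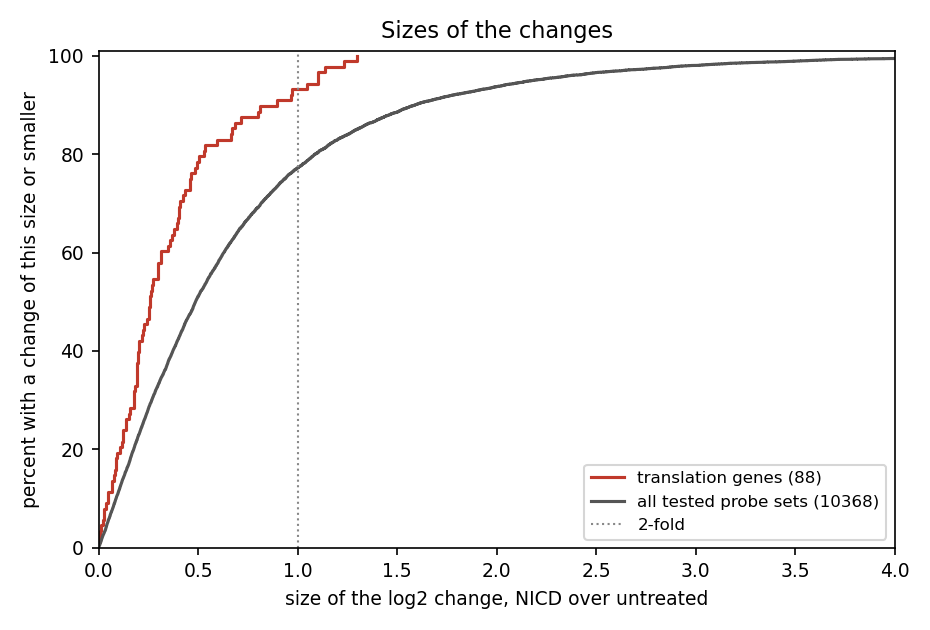
The curves give the cumulative percentage of genes (vertical axis) whose log2 change between NICD and untreated explants is no larger in size than the value on the horizontal axis, for the 88 tested translation genes (red) and all 10368 probe sets tested (grey), with a dotted line at 2-fold. The red curve lies left of the grey one: 78.4% of the translation genes and 51.1% of all probe sets were within 0.5.

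Untreated values were also compared between processing days, and the cause of a difference between days was not tested. Untreated arrays of the 2 days did not overlap for 54.5% of tested members, against 55.2% of all probe sets tested. With 2 arrays on each day, part of this arises by chance. With day as a block, limma called 17 members, 5 higher and 12 lower, at a background of 40.2%. All 11 members called without the block were among them, with adjusted p between 0.000298 (eef1a1o.L) and 0.0196 (sars1.L), and the further 6 were eif4a3.1.S and mars1.L, both higher, and eef2.1.L, pabpc1.S, qars1.S and tars1.L, all lower. The median change was -0.05 within day 1 and -0.06 within day 2.

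**Figure D2:**
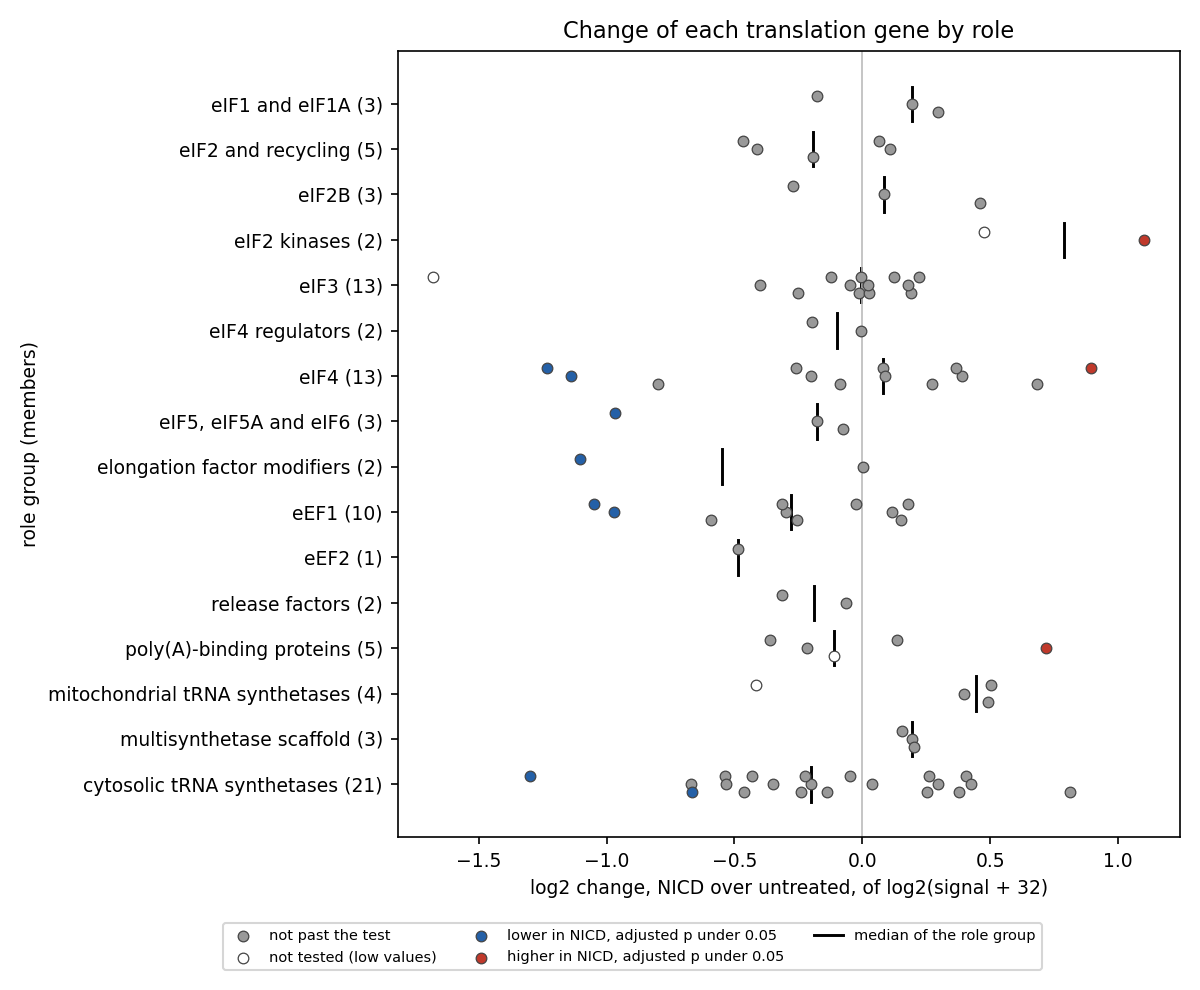
Each point is 1 of the 92 translation genes, placed by its log2 change between NICD and untreated explants (horizontal axis) in the row of its role group, with black bars at the medians of all members of a group. Red (3 genes) and blue (8 genes) mark higher and lower genes at an adjusted p under 0.05, grey the 77 tested genes that did not pass, and white the 4 that were not tested.

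**Figure D3:**
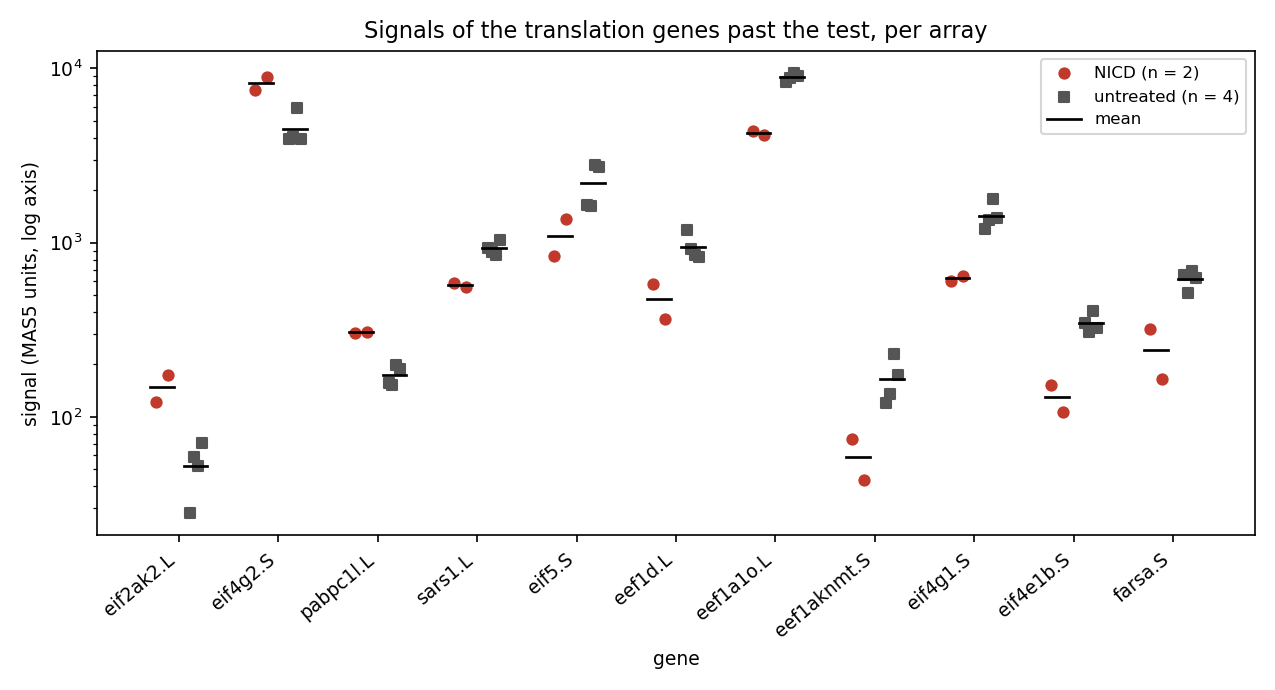
Signals of the 11 genes past the test are shown per array on a logarithmic axis, ordered from the largest increase to the largest decrease, with red circles for the 2 NICD arrays, grey squares for the 4 untreated arrays and bars at the means. In none of the 11 genes did the groups overlap, and the genes span signals from 27.9 to 9444.

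None of the members grouped by symbol with eIF1, eIF2 or eIF2B passed the test in limma, with or without day as a block. None had an unadjusted p under 0.05. Over all probe sets tested, 31.6% passed, 40.2% passed with day as a block, and 42.3% had an unadjusted p under 0.05. The groups are small. There were 3 members of the eIF1 and eIF1A group (median log2 change 0.19, from -0.18 for eif1ad.L to 0.30). The gene eif1ad.L stands in this group by its symbol alone. Grouped with eIF2 by symbol were 5 (median -0.19, from -0.47 for eif2a.S to 0.11). Those named for subunits of eIF2, eif2s1.S, eif2s2.L, eif2s2.S and eif2s3.S, ran from -0.41 to 0.11. A further 3 were of eIF2B, the exchange factor that reloads eIF2 with GTP (median 0.09, from -0.27 to 0.46). For eif1b.L, of a family that acts in the choice of the start codon, the signals were 9599 and 10295 in the NICD arrays and 7624, 7798, 8010.0 and 9001 in the untreated arrays. Both NICD values lay above all untreated ones, but the log2 change of 0.30 ± 0.17 (SE) did not pass (limma, Benjamini-Hochberg adjusted p = 0.214). The eIF2 gamma subunit gene eif2s3.S had 3159 and 3425 signal units with NICD, against 2798, 2166, 3823 and 3724 untreated. The untreated arrays of day 2 were the highest of the 6 and those of day 1 the lowest, with both NICD arrays between them (log2 change 0.11, adjusted p = 0.784). The eIF2B subunit gene eif2b2.L had 496 and 508 signal units with NICD and 546, 444, 403 and 504 untreated, which overlap (log2 change 0.09). For eif2b3.L, another subunit of eIF2B, the log2 change was -0.26 on day 1 and 1.18 on day 2, so its sign differed between days.

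Of the kinases that phosphorylate eIF2 and thereby slow initiation, eif2ak2.L, the kinase PKR that is switched on by double-stranded RNA, was higher with NICD. Its signals were 122 and 173 in the NICD arrays, against 27.9, 58.5, 52.3 and 70.3 in the untreated arrays. Each untreated array was under the filter for low values and each NICD array over it, so passing the filter depended on the higher group. The group means were 147 ± 36.2 signal units with NICD and 52.2 ± 17.9 untreated (SD), a log2 change of 1.10 ± 0.28 (SE; limma, Benjamini-Hochberg adjusted p = 0.014), with 1.06 on day 1 and 1.14 on day 2. Without NICD 2 it did not pass (adjusted p = 0.135; range over the alternatives 0.00686 to 0.135). The heme-regulated kinase gene eif2ak1.L was not tested, with 98.4 and 125 signal units with NICD, against 68.9, 78.1, 74.5 and 62.4 untreated.

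By the probe set that stands for each gene, the subunits of eIF3, the large scaffold complex of initiation, showed no call in limma in either direction. That held with or without day as a block, and none of those tested had an unadjusted p under 0.05. A second probe set of eif3k.L was lower (log2 change -0.81, limma, Benjamini-Hochberg adjusted p = 0.0434). Of 13 members for 11 subunits 12 were tested, and in all 12 the NICD and untreated signals overlapped. Over all probe sets tested, 31.6% were called, 40.2% with day as a block, and 42.3% had an unadjusted p under 0.05. Both NICD arrays lay above all untreated arrays in 26.7% of them and below in 24.2%. The changes of the 12 members ran from -0.40 for eif3g.S to 0.22 for eif3c.S, with a median of 0.01. For 11 of the 12 the 95% interval lay inside 2-fold, against 42.6% of all probe sets tested. The exception was eif3g.S (-1.05 to 0.25). For eif3d.S, whose human counterpart can bind the cap of some mRNAs, there were 9602 and 9775 signal units in the NICD arrays, against 10950.3, 9930.0, 8785 and 10506 in the untreated arrays. Both NICD values lay within the untreated range, and the log2 change was -0.05 ± 0.17 (SE; limma, Benjamini-Hochberg adjusted p = 0.86). The log2 changes of eif3l.L, eif3j.S and eif3e.L were 0.02, 0.02 and -0.01, and that of eif3i.L was 0.18.

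The untested eIF3 member stood apart from the others. The short copy of eif3a, the largest subunit of the complex, had 8.0 and 2.8 signal units with NICD, against 97.8, 59.1, 95.2 and 103 untreated. All 6 values were under the filter. With no filter its log2 change of -1.68 passed (limma, Benjamini-Hochberg adjusted p = 0.00105). Its second probe set had 6.6 and 7.1 signal units with NICD and 71.0, 64.0, 81.0 and 70.6 untreated. The identifiers of both probe sets differ only in the suffix, so the second may not be an independent reading. The long copy, eif3a.L, had 8364 and 8711 signal units with NICD and 9289, 8119, 10818 and 13075 untreated, which overlap (log2 change -0.25). Low MAS5 signals are noisy, since the method subtracts mismatch probes.

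The eIF4 group, which recruits mRNA, held changes in both directions: of 13 members tested, eif4g2.S was higher and eif4g1.S and eif4e1b.S were lower (23.1%, beside the background of 31.6%). The scaffold protein eIF4G1 joins the cap-binding eIF4E to the helicase eIF4A and to eIF3. For eif4g1.S the signals were 606 and 640.4 with NICD, against 1197, 1341, 1789.8 and 1378 untreated. Every untreated array was above both NICD arrays. Means were 623 ± 24.5 signal units with NICD and 1426 ± 255 untreated (SD), a log2 change of -1.14 ± 0.23 (SE; limma, Benjamini-Hochberg adjusted p = 0.0043), with -1.03 on day 1 and -1.25 on day 2. It passed without any 1 of the 6 arrays and under every alternative setting that gave a test, with adjusted p from 0.00141 to 0.0318.

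The related gene eif4g2.S, whose product (DAP5) lacks the eIF4E-binding site and acts in cap-independent initiation, was higher. Its signals were 7545 and 8938 with NICD and 3941, 4060.5, 5965 and 3931 untreated. The untreated arrays lay close together except untreated 3, which was above the other 3 and still below both NICD arrays. Means were 8242 ± 985 signal units with NICD and 4474 ± 995 untreated (SD), a log2 change of 0.89 ± 0.23 (SE; limma, Benjamini-Hochberg adjusted p = 0.0128), with 0.91 on day 1 and 0.88 on day 2. Without NICD 2 the change was 0.77 and did not pass (adjusted p = 0.112; range over the alternatives 0.00357 to 0.112). A further probe set, which the annotation gives to both eif4g2.S and nat1, had 11254 and 9930.3 signal units with NICD and 5778, 5369, 10935 and 7400.5 untreated. There untreated 3 lay between the NICD arrays, and the log2 change of 0.58 did not pass (adjusted p = 0.138).

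For the third family member, eif4g3, the untreated arrays split by day. It had 388 and 422 signal units with NICD, against 1527, 1363, 355 and 365 untreated. The untreated arrays of day 1 were high and the other 4 arrays low, so the log2 change was -1.81 on day 1 and 0.21 on day 2. The fit over all arrays gave -0.80 ± 0.56 (SE), which did not pass (limma, Benjamini-Hochberg adjusted p = 0.309). With day as a block the adjusted p was 0.114.

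Among cap-binding proteins, eif4e1b.S, of the eIF4E form known from oocytes, was lower with NICD. It had 152 and 107 signal units with NICD, against 344, 307, 406 and 325 untreated. Both NICD arrays were far below the lowest untreated array. Means were 129 ± 31.4 signal units with NICD and 345 ± 43.4 untreated (SD), a log2 change of -1.23 ± 0.23 (SE; limma, Benjamini-Hochberg adjusted p = 0.00282), with -0.96 on day 1 and -1.51 on day 2. It also passed without any 1 array and under each of those settings, with adjusted p from 0.00161 to 0.0408. The other cap-binding members did not pass, with log2 changes of 0.27 for eif4e2.L, 0.09 for eif4e3.L and 0.68 for eif4e3.S.

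No helicase gene of the eIF4A family passed by the probe set that stands for it. A second probe set of eif4a1.S was lower (log2 change -0.75, limma, Benjamini-Hochberg adjusted p = 0.0429). For eif4a3.1.S, whose product is the core of the exon junction complex, the signals were 11549 and 12861 with NICD and 8641, 9220.5, 9562 and 9737 untreated. Both NICD arrays were above all untreated arrays, and the log2 change of 0.39 ± 0.16 (SE) fell short of the threshold (limma, Benjamini-Hochberg adjusted p = 0.0958) but passed with day as a block (adjusted p = 0.0323). The initiation helicase genes had log2 changes of -0.20 for eif4a1.L, 0.08 for eif4a1.S and -0.26 for eif4a2.L. The genes of its helper proteins, eif4b.S and eif4h.S, had 0.37 and -0.09, while other probe sets of eif4b.S had -0.57 and -0.70. The eIF4E-binding repressor gene eif4ebp2.S had 318 and 297 signal units with NICD and 429, 349, 299.9 and 361 untreated, so that NICD 1 lay among the untreated values and NICD 2 just under them (log2 change -0.20). The eIF4E transporter gene eif4enif1.L overlapped as well (log2 change -0.0032).

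Of 3 members for eIF5, eIF5A and eIF6, eif5.S was lower (33.3%, beside the background of 31.6%). Its product makes eIF2 hydrolyse GTP once the start codon is found. Signals were 837 and 1359.5 with NICD, against 1639.6, 1633, 2773 and 2716 untreated. The untreated arrays were higher on day 2 than on day 1, and on each day the NICD array was below them. Means were 1098 ± 369.6 signal units with NICD and 2190.3 ± 640.3 untreated (SD), a log2 change of -0.97 ± 0.31 (SE; limma, Benjamini-Hochberg adjusted p = 0.0365), with -0.94 on day 1 and -1.0 on day 2. It did not pass without NICD 1 (adjusted p = 0.256), untreated 3 (0.0728) or untreated 4 (0.0814), nor with no filter on low values (0.0514), and its range over the alternatives was 0.0015 to 0.256. For eif5a.L, the factor that carries hypusine and helps at difficult peptide bonds, signals were 10499.9 and 13803 with NICD and 10990.4, 11092, 13689 and 15576 untreated, which overlap (log2 change -0.08, adjusted p = 0.808). For eif6.S, which keeps free large subunits apart from small ones, the change was -0.18.

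Of 11 members of eEF1 and eEF2, 2 were lower and none was higher by limma, with or without the filter; 3 had an unadjusted p under 0.05, and 3 were lower with day as a block. The 2 are 18.2% of these members, beside backgrounds over all probe sets tested of 31.6% in either direction, 16.2% lower and 15.3% higher. Backgrounds were 42.3% for an unadjusted p under 0.05 and 40.2% with day as a block. The median log2 change was -0.30, against 0.05 over all probe sets tested. The lower ones were eef1a1o.L, of the eEF1A form named for the oocyte, and eef1d.L, a subunit of the exchange complex that reloads eEF1A with GTP. For eef1a1o.L the signals were 4400.5 and 4173 in the NICD arrays, against 8320.2, 8872, 9444 and 9000.1 in the untreated arrays. The arrays within each group lay close together and far from the other group. Means were 4287 ± 161 signal units with NICD and 8909 ± 463 untreated (SD), a log2 change of -1.05 ± 0.17 (SE; limma, Benjamini-Hochberg adjusted p = 0.00129), with -0.96 on day 1 and -1.14 on day 2. It passed without any 1 array and under each setting that gave a test, with adjusted p from 0.000298 to 0.0146.

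The other eEF1A genes did not pass. The short copy eef1a1o.S had 21485 and 19472 signal units with NICD and 20203, 18742, 29267 and 32126 untreated, where the day 2 untreated arrays were high and the other arrays alike (log2 change -0.26, adjusted p = 0.436). The somatic gene eef1a1.S had 22198 and 31422 with NICD and 19235, 18346, 26983 and 30956 untreated. By this probe set, the one that stands for eef1a1.S, signals were higher on day 2 in both groups. The log2 change was 0.18 ± 0.24 (SE; limma, Benjamini-Hochberg adjusted p = 0.61). A second probe set of eef1a1.S had lower signals on day 2 in both groups, and its log2 change of 0.14 did not pass either. Signals of near-identical copies can include RNA of the other, so values of eEF1A genes are uncertain to that extent. The form known from muscle and neurons in mammals, eef1a2.S, had a log2 change of -0.59 (adjusted p = 0.153).

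For eef1d.L the signals were 581 and 363 with NICD, against 1178, 919, 845 and 827 untreated. NICD 2 was the lowest array and no NICD array reached the untreated ones. Means were 472 ± 154 signal units with NICD and 942 ± 162 untreated (SD), a log2 change of -0.97 ± 0.26 (SE; limma, Benjamini-Hochberg adjusted p = 0.017), with -0.81 on day 1 and -1.14 on day 2. Without NICD 2 the change was -0.65 and did not pass (adjusted p = 0.181; range over the alternatives 0.00384 to 0.181). A probe set that the annotation gives to both copies, eef1d.L and eef1d.S, had 1007 and 557 signal units with NICD, against 1803, 1436, 1608 and 1646 untreated. There both NICD arrays were below all untreated ones (log2 change -1.08, adjusted p = 0.0107). Its identifier differs from that of the eef1d.L probe set only in the suffix, so it may not be an independent reading. The probe set of eef1d.S alone had -0.30 and did not pass (adjusted p = 0.38). The other subunits of the exchange complex did not pass, with log2 changes of 0.12 for eef1b2.L, -0.03 for eef1g.L and 0.15 for eef1g.S. The gene eef1e1.L, named with this family but known as a scaffold protein of the multisynthetase complex, had -0.31.

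The translocation factor gene eef2.1.L had 10419 and 8519 signal units with NICD, against 13298, 11598, 13417 and 14676 untreated. Both NICD arrays were below all untreated arrays. The log2 change of -0.49 ± 0.18 (SE) did not pass without the day block (limma, Benjamini-Hochberg adjusted p = 0.0607) and passed with it (adjusted p = 0.0264).

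Of the enzymes that methylate eEF1A, eef1aknmt.S was lower. It had 74.6 and 43.1 signal units with NICD, against 120.3, 135, 229 and 174 untreated. Both NICD arrays were under the filter and all untreated arrays over it, so passing the filter depended on the higher group here too. Means were 58.9 ± 22.3 signal units with NICD and 165 ± 48.6 untreated (SD), a log2 change of -1.10 ± 0.29 (SE; limma, Benjamini-Hochberg adjusted p = 0.0145), with -0.58 on day 1 and -1.63 on day 2. Without NICD 2 it did not pass (adjusted p = 0.144; range over the alternatives 0.00905 to 0.144). For eef1akmt1.S, with 645 and 372 signal units in the NICD arrays and 623, 604, 349 and 434 in the untreated arrays, the signals were higher on day 1 in both groups and the log2 change was 0.00.

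Neither release factor gene passed in limma or had an unadjusted p under 0.05, beside backgrounds of 31.6% and 42.3%. For etf1.S, which reads the stop codon, signals were 4068 and 4848 with NICD and 5968, 5646, 5251 and 5303 untreated. Both NICD arrays lay below the untreated ones, with a log2 change of -0.32 ± 0.18 (SE; limma, Benjamini-Hochberg adjusted p = 0.221). Its GTPase partner gspt1.L had a change of -0.06.

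Of the poly(A)-binding proteins 4 of 5 were tested, and pabpc1l.L, the embryonic form, was higher with NICD (25.0%, beside the background of 31.6%). Its signals were 304 and 307 with NICD, against 156, 152, 198 and 189 untreated. The NICD arrays were nearly equal and above the highest untreated array. Means were 305 ± 2.1 signal units with NICD and 174 ± 23.0 untreated (SD), a log2 change of 0.72 ± 0.22 (SE; limma, Benjamini-Hochberg adjusted p = 0.0299), with 0.85 on day 1 and 0.59 on day 2. It did not pass without NICD 1 (adjusted p = 0.101), NICD 2 (0.132), untreated 1 (0.0715) or untreated 2 (0.0747), while its change stayed between 0.67 and 0.72 in those fits, and the adjusted p ranged over all alternatives from 0.0159 to 0.132. The general form pabpc1.S had 11002 and 11174 signal units with NICD and 15086, 13124, 14014 and 14815 untreated. All untreated arrays were above both NICD arrays. The log2 change of -0.36 ± 0.16 (SE) passed with day as a block (limma, Benjamini-Hochberg adjusted p = 0.0439) and not without it (0.109). Its long copy, pabpc1.L, had a change of -0.22, and pabpc4.L, which was not tested, had signals from 54.9 to 114.

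Of the cytosolic tRNA synthetases, 2 of 21 members (for 16 names) were lower and none was higher by limma; 6 had an unadjusted p under 0.05, and 1 was higher and 4 were lower with day as a block. The 2 called are 9.52% of these members, beside the background of 31.6%. Backgrounds over all probe sets tested were 42.3% for an unadjusted p under 0.05 and 40.2% with day as a block. Their median log2 change was -0.20. NICD arrays lay above all untreated arrays for 5 members, below for 7 and overlapped for 9, beside backgrounds of 26.7% above and 24.2% below, and in 15 members the 95% interval of the change lay inside 2-fold. The lower genes were farsa.S, for the alpha subunit of phenylalanyl-tRNA synthetase, and sars1.L, for seryl-tRNA synthetase.

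The farsa.S signals were 319 and 165 in the NICD arrays, against 648, 510.5, 688 and 625 in the untreated arrays. NICD 2 had the lowest signal and NICD 1 was also under every untreated array. Means were 242 ± 109 signal units with NICD and 618 ± 76.2 untreated (SD), a log2 change of -1.30 ± 0.27 (SE; limma, Benjamini-Hochberg adjusted p = 0.00522), with -0.79 on day 1 and -1.80 on day 2. Without NICD 2 the change was -0.88 and did not pass (adjusted p = 0.0728; range over the alternatives 0.00285 to 0.0728). Its long copy, farsa.L, had 66.8 and 77.0 with NICD and 109, 149, 100.5 and 119 untreated, with no overlap and a log2 change of -0.54 (adjusted p = 0.111). The gene for the other subunit of the same enzyme, farsb.L, had 616 and 596 signal units with NICD and 445, 546, 476 and 334 untreated. There both NICD arrays were above all untreated arrays, with a log2 change of 0.42 that did not pass (adjusted p = 0.213).

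For sars1.L the signals were 587 and 558 with NICD, against 933, 887, 853 and 1039.9 untreated. The groups did not overlap. Means were 572 ± 20.9 signal units with NICD and 928 ± 81.5 untreated (SD), a log2 change of -0.66 ± 0.21 (SE; limma, Benjamini-Hochberg adjusted p = 0.0355), with -0.60 on day 1 and -0.72 on day 2. It passed without untreated 3, and without any other 1 array the adjusted p lay between 0.0649 (without untreated 2) and 0.158 (without NICD 2), with 0.07 without untreated 1, 0.0796 without untreated 4 and 0.0955 without NICD 1. The change stayed between -0.70 and -0.61 in those 5 fits, and the adjusted p over all alternatives ranged from 0.0196 to 0.158.

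Other synthetases near the threshold had changes of either sign. The threonyl-tRNA synthetase gene tars1.L had 3513 and 3112 signal units with NICD, against 4582, 5175, 4358 and 5108 untreated. The NICD arrays were lower than every untreated array (log2 change -0.53 ± 0.19, SE; limma, Benjamini-Hochberg adjusted p = 0.056, 0.0236 with day as a block). The glutaminyl-tRNA synthetase gene qars1.S was likewise below (log2 change -0.67, adjusted p = 0.0701, 0.0409 with day as a block). The methionyl-tRNA synthetase gene mars1.L had 343 and 325 signal units with NICD, against 196, 271, 162 and 109 untreated. Here the NICD arrays were the higher ones (log2 change 0.81 ± 0.30, SE; adjusted p = 0.064, 0.0248 with day as a block). By the probe sets that stand for them, the remaining cytosolic synthetases lay between -0.54 and 0.42.

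The 3 mitochondrial synthetases tested had positive changes and no call in limma, and no unadjusted p was under 0.05. Backgrounds were 31.6% for a call and 42.3% for an unadjusted p under 0.05. For hars2.L, the histidyl-tRNA synthetase of mitochondria, signals were 955 and 1139.7 with NICD and 867, 709, 650.0 and 717 untreated. Both NICD arrays were above the untreated ones (log2 change 0.49 ± 0.22, SE; limma, Benjamini-Hochberg adjusted p = 0.119). The arginine and cysteine enzymes rars2.S and cars2.L had log2 changes of 0.50 and 0.40, neither of which passed. The mitochondrial methionine enzyme gene mars2.L was not tested, with 41.8 and 55.2 signal units with NICD and 76.0, 69.1, 92.3 and 64.9 untreated.

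The scaffold proteins that hold several synthetases in 1 complex overlapped between groups. For aimp2.L the signals were 1033 and 1651 with NICD and 868, 1175, 1137 and 1412 untreated, with a log2 change of 0.20. The changes of aimp2.S and aimp1.S were 0.16 and 0.19. None passed (limma, adjusted p from 0.595 to 0.612) and no unadjusted p was under 0.05, beside backgrounds of 31.6% and 42.3%. Backgrounds for groups without overlap were 26.7% above and 24.2% below.

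Both copies of 17 gene pairs were among the members, and their changes had the same sign in 12. In no pair were both copies called, where 12.5% of all tested members were called. Shares over all gene pairs of the array were not computed, so these counts are a description only. For eprs1 and for kars1, the identifiers of the probe sets of both copies differ only in the suffix. Those pairs may not be independent readings. The long and short copies differed by over 0.5 in several pairs in which 1 copy passed: eef1a1o (-1.05 for the long copy and -0.26 for the short copy), eef1d (-0.97 and -0.30), farsa (-0.54 and -1.30) and pabpc1l (0.72 and 0.14). The differences between copies were not tested.

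**Figure D4:**
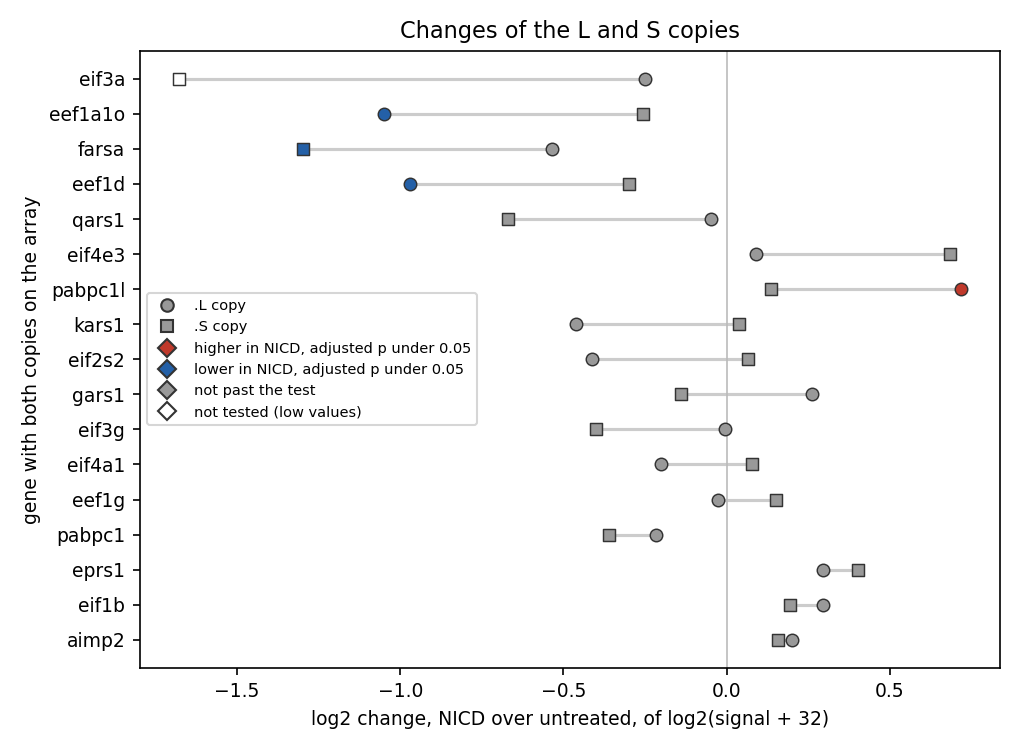
Log2 changes between NICD and untreated explants are shown for the long copy (circle) and short copy (square) of 17 gene pairs, ordered by the distance between them. In 12 pairs both copies lie on the same side of 0, and a call (blue for lower, red for higher) stands on no more than 1 copy of a pair.

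Of the members, 21 had more than 1 tested probe set, and in 10 of them the probe sets differed in sign. None was called in both directions. A second probe set of eif3k.L, with 343 and 284 signal units with NICD and 685, 410.0, 519 and 728 untreated, was lower (log2 change -0.81, limma, Benjamini-Hochberg adjusted p = 0.0434), whereas the probe set that stands for the gene had -0.12. Likewise a second probe set of eif4a1.S had a change of -0.75 (adjusted p = 0.0429), with 171 and 138 signal units with NICD and 225, 241, 327 and 346 untreated, beside 0.08 for the one used. The 3 probe sets of eif4b.S ran from -0.70 to 0.37, and none passed. Both NICD arrays were above all untreated arrays for the one used (0.37) and below them for the others (-0.57 and -0.70). The 3 of yars1.S ran from -0.35, for the one used, to 0.61, and none passed. Both NICD arrays were below all untreated arrays for the one used and above them for the others. Identifiers of those others differ only in the suffix, so they may not be independent readings. The other probe set of eif5.S had -0.63, of the same sign as the one used, but did not pass (limma, Benjamini-Hochberg adjusted p = 0.0533). Mean signals of both over all arrays were nearly equal, 1826.2 for the one used and 1826.0 for the other.

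The changes of the 2 days were set side by side as a description. Across the 88 tested members the log2 changes of day 1 and day 2 had a Pearson correlation of 0.55 and a Spearman correlation of 0.52, against 0.85 and 0.77 across all probe sets tested. The members' changes over all arrays spanned -1.30 to 1.10, against -6.21 to 7.59. A narrower range can by itself lower a correlation, so these values do not tell whether members repeated less well. Genes of 1 array are no independent replicates, and each day's change rests on 1 NICD array. The sign differed between days for 26 tested members (29.5%), against 22.4% of all probe sets tested. Each of the 11 called members had the same sign on both days, which follows from their groups not overlapping and adds no support.

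**Figure D5:**
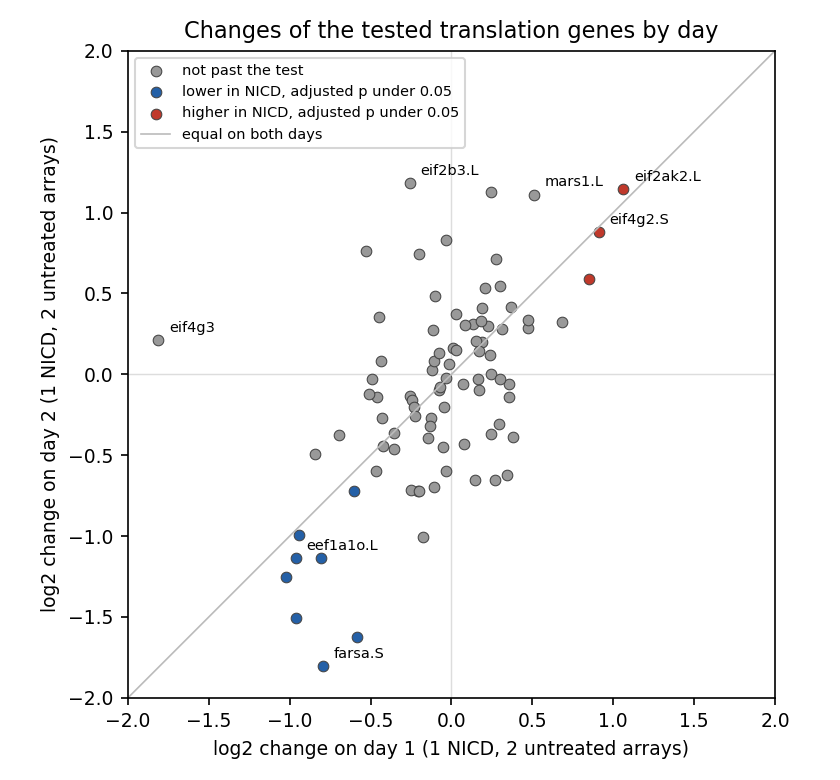
Each point is 1 of the 88 tested translation genes, with its log2 change between NICD and untreated explants on day 1 (horizontal axis) and on day 2 (vertical axis), each from 1 NICD and 2 untreated arrays; the diagonal marks equal changes. The 11 called genes (red and blue) lie in the quadrants of equal sign, as they must since their groups do not overlap. Among the others, eif4g3 (-1.81 and 0.21) and eif2b3.L (-0.26 and 1.18) change sign.

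Genes that act on the translation machinery were compared through related lists, which are partial. Names found with a probe set of their own were 12 of 24 for the integrated stress response and 16 of 27 for mTOR and translation control. They were 7 of 10 for the MYC family, 2 of 12 for mitochondrial and 19 of 32 for other translation factors. In the integrated stress response list, the programme that follows eIF2 phosphorylation, 2 of 10 tested probe sets were higher and 2 lower (median log2 change -0.15). A further 4 were not tested. That is 4 of 10 called, beside the background of 31.6%. With day as a block 3 were higher and 4 lower, beside 40.2%, and 7 had an unadjusted p under 0.05, beside 42.3%. The stress-induced sesn2.L had 1844 and 1629.6 signal units with NICD, against 269.6, 390.5, 324 and 309 untreated, with all NICD values above the untreated ones (log2 change 2.32, limma, Benjamini-Hochberg adjusted p = 6.64e-05). The mitochondrial folate enzyme gene mthfd2.L was higher as well (log2 change 1.07). The amino acid transporter subunit gene slc3a2.S had 527 and 110.2 with NICD and 4989.8, 3144, 3583 and 2361 untreated, far apart (log2 change -3.60, adjusted p = 0.0004), and ddit4.S, an inhibitor of mTOR signalling, was lower too (-1.43).

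In the list for mTOR and translation control, 3 of 19 tested probe sets were higher and none was lower by limma, while 4 were higher and 1 lower with day as a block and 6 had an unadjusted p under 0.05. The 3 are 15.8% of those tested, beside backgrounds of 31.6% in either direction, 15.3% higher and 16.2% lower. For an unadjusted p under 0.05 the background was 42.3%, and with day as a block 40.2%. The higher ones were sesn1.L (log2 change 2.04), a sestrin that restrains mTOR, and both copies of the eIF4E kinase gene mknk2, mknk2.S (1.61) and mknk2.L (0.75). For mknk2.S the signals were 281 and 448 with NICD, against 76.5, 81.2, 122 and 106 untreated, without overlap (Benjamini-Hochberg adjusted p = 0.00142). The list's median log2 change was -0.07.

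In the list of the MYC family, transcription factors known to act on many genes of protein synthesis, 2 of 10 tested probe sets were higher and 1 lower (median log2 change 0.18), which is 30.0%, close to the background of 31.6%. The higher ones were mycl.S (1.14) and mxi1.L (1.46), a MYC antagonist, and the lower one was mnt.L (-0.87), another antagonist. The copies of myc itself had -0.09 (myc.L) and 0.19 (myc.S), and neither passed. Of 12 mitochondrial translation factors listed, 2 were found. Neither passed in limma, and neither had an unadjusted p under 0.05 (mtif3.L 0.33, tsfm.L 0.18). Of 18 tested probe sets for other translation factors, paip1.S (0.81), which binds poly(A)-binding protein, and the initiation helicase gene dhx29.L (0.81) were higher, and dhps.S (-1.26), the first enzyme of hypusine synthesis on eIF5A, was lower (median log2 change 0.14). These calls are 16.7% of those tested, beside the same background. With no filter on low values that list held 1 call, lower, at a background of 20.8%. With day as a block 4 were higher and 1 lower, at a background of 40.2%.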

How the data were processed

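The authors deposited linear intensities of each probe set, and the submitters' processing notes name MAS5 without a version. The mean per array after leaving out extremes was about 500, so arrays had been scaled before deposit. Processing day, chip lot (1) and fluidics module were read from the arrays' experiment records, per the file headers. Of 15611 probe sets, 120 controls were left out; of the other 15491, the platform annotation gave 1 symbol to 9304, several to 195 and none to 5992, and 9227 were found in the RefSeq table (assembly Xenopus_laevis_v10.1) (91 of the 92 members). Probe sets with several symbols stand for no member. No sequence or coordinate is given, since none was used here.

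Probe sets above the 40th percentile of their array in at least 2 arrays were tested, with log2(signal + 32) fitted by limma 3.58.1 in R 4.3.3 (lmFit and 2-sided eBayes tests, trend on) for NICD over untreated on all 6 arrays, and Benjamini-Hochberg adjustment over all 10368 probe sets at 0.05. A fold change on this scale understates changes of low signals. Means and SDs are on the linear scale. The fit was tested on simulated data with independent noise, no difference between days and far fewer changed probe sets than were called here. That test therefore does not show how the fit does on these arrays. The members, the role groups and the related lists (integrated stress response, mTOR and translation control, MYC family, mitochondrial and other translation factors, and 8 cell type and proliferation lists) were chosen with earlier results of these data known. Values in every sample are given for called members and, in each role group, for the member with the highest mean signal, by rule; eif3a.S, eif3a.L, eif4g3, eef1a1o.S, farsa.L, farsb.L, mars1.L, mars2.L, the second probe sets of eif3a.S, eif3k.L and eif4a1.S and those with several symbols were added after their values were seen. The alternatives tried were pseudocounts of 1 and 80, median centring, quantile normalization, other filters, no trend, array weights, replicate and day as blocks, other probe set choices, other thresholds and each array left out. Numbers of arrays, 2 and 4, limit the precision.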

Additional observations from a re-analysis of the deposited data

Results flagged for a closer look

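In 2 of the 92 untreated groups of 4 arrays tested, 1 array lay far from the other 3 by Dixon's ratio, and chance gives about 1 in 20. For eif2s1.S, the alpha subunit of eIF2 that the eIF2 kinases phosphorylate, untreated 3 had 2301 signal units, against 1748 to 1818 in the other untreated arrays, and the NICD arrays had 2144 and 1288. Its log2 change of -0.19 did not pass the test. For eif4g2.S untreated 3 had 5965 signal units, against 3931 to 4061 in the other untreated arrays, with 7545 and 8938 in the NICD arrays. Without untreated 3 the change of eif4g2.S was 1.04 and passed (limma, Benjamini-Hochberg adjusted p = 0.00388; range over the alternatives 0.00357 to 0.112).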

How the results depend on the processing

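None of the 11 called members changed sign in these fits. With an array left out or the days taken apart this had to be so, since their groups did not overlap. The changes of eif2s3.S, eif3d.S, eif5a.L, eef1akmt1.S, eef1a1.S and aimp2.L, none of them called, reversed in at least 1 fit. Against 3 members higher and 8 lower, quantile normalization called 6 higher, adding eif1b.L, eif4a3.1.S and eif4b.S. The other probe sets of eif4b.S had log2 changes of the opposite sign in the main fit (-0.57 and -0.70). The day block called 5 higher and 12 lower, an adjusted p under 0.10 called 6 higher and 11 lower, and a 2-fold minimum left 1 higher and 5 lower. Leaving out each array in turn gave 0 to 3 higher, 4 to 8 lower and a median log2 change between -0.11 and 0.0033. The low counts, 0 and 4, came without NICD 2, where 4 of the 11 calls were kept; without NICD 1 it was 8, and without an untreated array 9 or 10. With 1 NICD array left, it was assumed to vary like the untreated arrays. All 11 were kept under median centring, pseudocounts of 1 and 80, no trend, quantile normalization and the day block. Array weights lost eif5.S, averaging a gene's probe sets lost eef1d.L (log2 change -0.49), and the replicate block lost eif5.S, eef1aknmt.S and sars1.L. The other eef1d.L probe set in that average had only 6.4 to 10.6 signal units and was not tested in the main fit. The filter at the 60th percentile removed eif2ak2.L and eef1aknmt.S before the test, and the 9 left to test passed. The filter on the mean removed eif2ak2.L, and the 10 left to test passed. The replicate block gave 3 higher and 6 lower with a median of -0.10 and called eif4g3, but no label says that numbers pair the samples. Correlations of the deviations of same-numbered arrays from their group means (r = 0.20 and -0.23) cannot settle it. NICD 1 and untreated 1 share a processing day, and NICD 2 and untreated 2 do not. Signal over background limits the genes of low signal, such as eif2ak2.L and eif3a.S.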

Other observations

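Of the 5 probe sets named for several symbols that include a translation gene, the 3 not described above gave no call in limma. The probe set shared by both copies of eif3g had 4170.0 and 2340.1 signal units with NICD and 4734, 3299.8, 3693 and 3469.9 untreated, and NICD 2 was the lowest of the 6 (log2 change -0.27, Benjamini-Hochberg adjusted p = 0.484). That shared by both copies of eif4a1 had 6655 and 7115 with NICD and 7776, 8342, 6322 and 6865 untreated, with a log2 change of -0.08. That shared by both copies of eif1b had 4506 and 5167 with NICD and 3611, 3187, 5686 and 5059 untreated, with a log2 change of 0.18. In all 3 the groups overlapped.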
